A study of Mus musculus with 8 samples.

Results

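The lysosome genes described here are 35 genes chosen by name, out of 56832 rows of the deposited expression table. They encode enzymes that break down proteins, glycans and lipids inside lysosomes, proteins of the lysosomal membrane, subunits of the proton pump and the transcription factors that act on this gene set. All 35 were in the table, and 34 averaged 10 normalized counts or more over the 8 libraries, the limit for testing. The exception was Atp6v0d2. RNA-seq was done on microglia, the resident macrophages of the brain, sorted from young adult male 5xFAD mice. This line carries mutant human amyloid precursor and presenilin transgenes under the neuronal Thy1 promoter and forms amyloid plaques, and the animals of both groups carried it. Ethanol mice received 3 g/kg ethanol as a 20% solution by intraperitoneal injection, and saline mice received saline. Injections were given on 5 days of each week for 4 weeks, and a withdrawal period of 2 weeks followed. Each group had 4 libraries, and the question is how microglial transcripts differ after ethanol. The labels do not say that each library came from its own mouse, so p-values measure the spread between these libraries, which may be partly technical.

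Lysosomes are acidic compartments in which cells degrade material taken up from outside or delivered by autophagy. The vacuolar proton pump (V-ATPase) acidifies them with a membrane sector, V0, and an ATP-hydrolysing sector, V1. Glycosidases, proteases and lipases then work at low pH, and membrane proteins such as LAMP1 and LAMP2 line the compartment. TFEB, TFE3 and MITF are related transcription factors that bind E-box sequences in the promoters of many lysosomal genes, and their activity is largely set by where the protein sits in the cell rather than by transcript level. Microglia clear debris and amyloid through this compartment, and human loss of many of these enzymes causes storage disease of the brain.

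Promoter sequences were examined because these factors are known to act through a short palindrome, the E-box CACGTG, often with T before it. RefSeq promoter windows on GRCm38.p6, reaching from 250 bases before to 50 bases after a gene start, were matched by symbol for 31 of the 35 genes. On either strand, TCACGTG was present for 11 of these 31 genes, or 35.5%. It was present for 4.29% of the 27025 genes with a window and for 7.10% of the 9892 tested genes with one. The longer palindrome TCACGTGA was found for 5 of the 31 genes, or 16.1%. It was found for 1.12% of all genes with a window and for 2.28% of the tested ones. With a further G before it and C after it, the palindrome was found for 0 of the 31, against 0.370% of all genes with a window and 0.809% of the tested ones. TCATGTG, the M-box bound by MITF, was found for 6 of the 31, or 19.4%. Its share was 4.31% of all genes with a window and 2.72% of the tested ones. CACGTG itself was found for the same 11 members as TCACGTG. Among all genes with a window it was found for 8.09%, and among the tested ones for 11.8%. These matches are letters in a window and do not show that a factor was bound.

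The stretches of 6 of these promoters are printed 5′ to 3′ on the strand of the gene, with each TCACGTG on either strand in capitals, to show how the sites are arranged. Lamp1 had 4 such sites within 77 bases (chr8:13159087-13159163, plus strand). Mcoln1 had 2 (chr8:3500435-3500492, plus strand), Ctsa had 2 that lie on either side of the annotated start (chr2:164833748-164833796, plus strand) and Gla had 2 farther upstream (chrX:134601181-134601245, minus strand). Atp6v1a (chr16:44139372-44139403, minus strand) and Lgmn (chr12:102439124-102439154, minus strand) had 1 each, the first of them in the 8-base form.
Lamp1: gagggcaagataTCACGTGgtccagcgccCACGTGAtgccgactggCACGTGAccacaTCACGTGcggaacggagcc
Mcoln1: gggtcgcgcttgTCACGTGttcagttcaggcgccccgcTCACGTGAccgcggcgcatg
Ctsa: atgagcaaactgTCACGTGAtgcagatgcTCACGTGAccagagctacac
Gla: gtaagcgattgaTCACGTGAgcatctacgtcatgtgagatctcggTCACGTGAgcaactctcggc
Atp6v1a: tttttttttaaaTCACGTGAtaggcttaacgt
Lgmn: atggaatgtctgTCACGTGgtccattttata

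**Figure D1:**
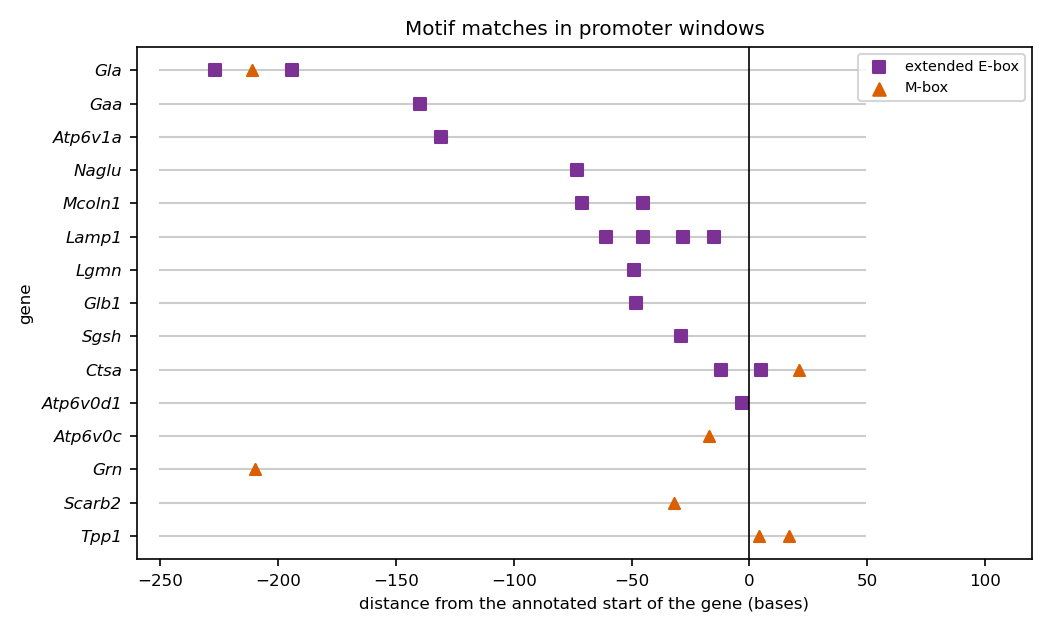
Positions of motif matches in the promoter windows of the 15 lysosomal genes that had one, on either strand, against the distance in bases from the annotated gene start (vertical line); grey lines span each window, squares are TCACGTG matches and triangles are TCATGTG matches. Gla, Gaa and Atp6v1a have their extended E-box more than 100 bases before the start, and the other 8 genes have theirs closer to it.

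The genes with these sites spanned nearly the whole range of expression. Gla and Lgmn, the lowest and the highest of the 34 tested members, both carry the site. Per kilobase of transcript, the 11 genes with TCACGTG had a median level of 760 normalized counts and a range of 25.2 to 36445. The other 20 genes with a window had a median of 2016 and a range of 137 to 25830.

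The libraries held 14271351 to 17231301 assigned reads. Microglial markers (10 of 10 detected, among them P2ry12 and Tmem119) summed to 778005 to 815903 normalized counts in ethanol and 735449 to 808118 in saline libraries. Of the marker lists of other cells, that of neutrophils reached the highest share of all normalized counts, 0.0841%, with sums of 2219 to 9619 in ethanol and 2467 to 12953 in saline libraries. Whether such cells contributed to any lysosomal value was not tested.

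Lysosomal transcripts were abundant. The 35 genes made up 2.49 ± 0.0656% of all normalized counts in ethanol and 2.49 ± 0.0614% in saline libraries (SD, n = 4 each). The difference was not tested. The share ran from 2.40% to 2.55% in ethanol and from 2.42% to 2.55% in saline libraries. Lgmn, Psap and Laptm5 weigh most in it, with means over all libraries of 72526, 68630 and 54913 normalized counts. The next gene, Grn, had 22887. Per kilobase of the longest coding transcript, the median member stood at 1148 normalized counts, against 156 for all tested genes. Lengths on this scale come from GENCODE M21 on GRCm38, while the table was made on GRCm39, and a gene that uses a shorter transcript is understated by it. In such bulk libraries, fewer cells of a type and less RNA per cell cannot be told apart.

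**Figure D2:**
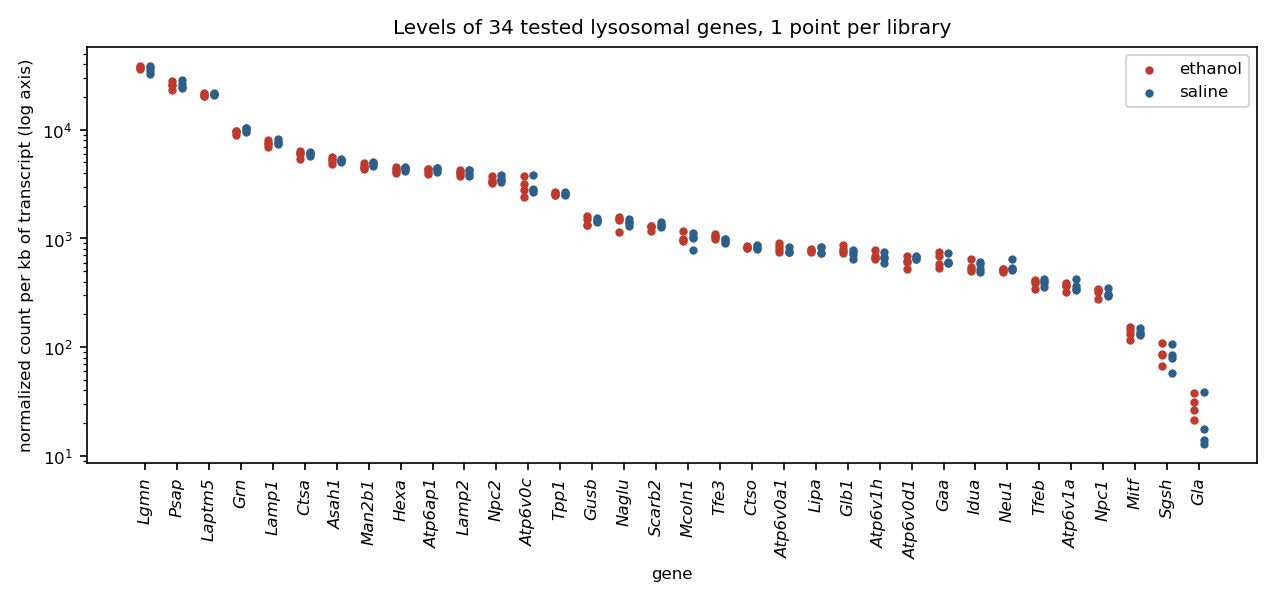
Normalized count per kilobase of transcript (log axis) for the 34 tested lysosomal genes, in order of their mean, with 1 point for each of 4 ethanol (left, red) and 4 saline (right, blue) libraries; Atp6v0d2, at 0 in 7 libraries, is not shown. Levels fall from 36445 for Lgmn to 25.2 for Gla, and the ethanol and saline points of every gene overlap.

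Among the proteases, legumain dominated. Lgmn encodes this asparaginyl endopeptidase, which also processes other lysosomal proteases. Lgmn had 72021, 75759, 74000 and 76890 normalized counts in ethanol libraries 1 to 4, against 68430, 64302, 72822 and 75982 in saline libraries 1 to 4. Saline libraries 1 and 2 lay below every ethanol library, saline libraries 3 and 4 lay among them, and the groups overlapped. The fold was 1.06 with a 95% interval of 0.980 to 1.15 (limma, adjusted p = 0.997). Per kilobase it had the highest level of all members, 32313 to 38638, with no overlap with the next gene, Psap.

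The other proteases were close to equal between the groups. Ctsa encodes cathepsin A, the protective protein that holds β-galactosidase and neuraminidase 1 in a complex. It averaged 21689 ± 1405 in ethanol and 21890 ± 794 in saline libraries (SD, n = 4 each), and its fold was 0.990 (0.908 to 1.08). Tpp1, a tripeptidyl peptidase whose human loss causes a childhood ceroid lipofuscinosis, had a fold of 0.995 (0.915 to 1.08). Ctso, the cysteine protease cathepsin O, had a fold of 0.993 (0.895 to 1.10). Tpp1 was also among the least variable members, with a coefficient of variation of 2.65% over the 8 libraries.

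Glycan-degrading enzymes ranged from 25.2 to 4735 normalized counts per kilobase, and they included Gla and Sgsh, the tested members with the highest coefficients of variation, 41.0% and 20.7%. Man2b1 (lysosomal α-mannosidase), at 4735 per kilobase, and Hexa (the α subunit of β-hexosaminidase), at 4325, led this group. In the cathepsin A complex, Ctsa was at 5976 per kilobase, above Glb1 (β-galactosidase) at 760 and Neu1 (neuraminidase 1) at 532. The ranges over the 8 libraries were 5416 to 6335 for Ctsa, 648 to 871 for Glb1 and 493 to 644 for Neu1, so that none of the 3 overlapped.

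Gla, which encodes α-galactosidase A, had the largest difference of any member and did not pass the test. It had 68.4, 121, 100.3 and 84.4 normalized counts in ethanol libraries 1 to 4, against 40.7, 56.0, 44.9 and 124 in saline libraries 1 to 4. Saline library 4 was the highest of all 8, so the groups overlapped, although the other 3 saline libraries lay below every ethanol library. The fold was 1.53 (95% interval 0.918 to 2.54, limma adjusted p = 0.997). Without saline library 4 the log2 fold change was 0.95 in place of 0.61, and it did not pass adjustment (limma adjusted p = 0.999). Apart from Atp6v0d2, it was the member with the fewest reads.

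The heparan sulfate enzymes differed in their spread. Sgsh (sulfamidase) had 378, 372, 295 and 475 normalized counts in ethanol libraries 1 to 4, against 346, 371, 254 and 471 in saline libraries 1 to 4. Library 3 was the lowest and library 4 the highest in each group. Its coefficient of variation over the 8 libraries was 20.7%, and the fold was 1.06 (0.807 to 1.41). Naglu (α-N-acetylglucosaminidase) had a fold of 1.01 (0.879 to 1.17) and Idua (α-L-iduronidase) one of 1.00 (0.869 to 1.16).

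The remaining glycosidases had folds from 0.925 to 1.09. Neu1 averaged 1263 ± 37.0 in ethanol and 1371 ± 149 in saline libraries (SD, n = 4 each), a fold of 0.925 (0.804 to 1.06). Glb1 averaged 1896 ± 142 in ethanol and 1744 ± 142 in saline libraries, with a fold of 1.09 (0.953 to 1.24). Hexa had a fold of 0.981 (0.895 to 1.08) and Man2b1 one of 0.956 (0.878 to 1.04). For the β-glucuronidase gene Gusb it was 0.969 (0.865 to 1.09), and for the acid α-glucosidase gene Gaa it was 1.00 (0.855 to 1.18). None passed the test, and each group's range overlapped the other's.

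Genes for lipid breakdown and lipid export were expressed at high level, apart from Lipa and Npc1. Psap encodes prosaposin, the precursor of the saposins that present lipids to hydrolases. Psap had 62244, 68086, 68630 and 74057 normalized counts in ethanol libraries 1 to 4, against 65782, 64445, 75568 and 70229 in saline libraries 1 to 4. The groups covered nearly the same range, with a fold of 0.989 (0.903 to 1.08). Asah1 (acid ceramidase) had a fold of 1.01 (0.923 to 1.10) and Lipa (lysosomal acid lipase) one of 0.989 (0.880 to 1.11).

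The pair of Niemann-Pick type C proteins, which pass cholesterol out of the lysosome, differed in level but not detectably between the groups. Npc2, the soluble carrier, stood at 3497 per kilobase, and Npc1, the membrane protein that receives its cargo, at 319. Their folds were 0.968 (0.877 to 1.07) for Npc2 and 1.02 (0.886 to 1.16) for Npc1. Grn encodes progranulin, a lysosomal protein whose loss in humans causes frontotemporal dementia. Grn had 20729, 22734, 22498 and 22851 normalized counts in ethanol libraries 1 to 4, against 23339, 24251, 22439 and 24258 in saline libraries 1 to 4. The ethanol values were lower except against saline library 3, which lay among them, and the fold was 0.942 (0.869 to 1.02, limma adjusted p = 0.997).

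Membrane proteins ranged widely in their spread between libraries. Laptm5, a lysosomal membrane protein of haematopoietic cells, had the lowest coefficient of variation of the 34 tested members, at 54500 ± 1792 in ethanol and 55326 ± 1027 in saline libraries (SD, n = 4 each). Its coefficient of variation over all 8 was 2.59%, and the fold was 0.985 (0.918 to 1.06). Lamp1 and Lamp2, the main structural glycoproteins of the membrane, had folds of 0.968 (0.887 to 1.06) and 1.00 (0.913 to 1.10). Scarb2, which encodes LIMP-2, the carrier of glucocerebrosidase, had 6064, 6126, 5932 and 5513 in ethanol libraries, against 5964, 6113, 6685 and 6280 in saline libraries. Ethanol libraries 3 and 4 lay below every saline library, saline libraries 3 and 4 lay above every ethanol library, and the fold was 0.944 (0.857 to 1.04). Mcoln1, the cation channel TRPML1 of the lysosomal membrane, had a fold of 1.04 (0.889 to 1.21) and a coefficient of variation of 11.2%.

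Proton pump subunits were expressed unevenly per kilobase, and Atp6v0a4 and Atp6v0d2 were near 0. Among the members, Atp6ap1 (an accessory subunit) was at 4230 and Atp6v0c (the ring proteolipid of V0) at 3046. Atp6v0a1 was at 801, Atp6v1h (a regulatory V1 subunit) at 683, Atp6v0d1 at 638 and Atp6v1a (the catalytic V1 subunit) at 365. Of the 4 genes for subunit a, Tcirg1 ranked first with 1248 to 1760 per kilobase over the 8 libraries, then Atp6v0a2 with 980 to 1161 and Atp6v0a1 with 744 to 916, without overlap. The order of the first 2 rests on the transcript lengths used, 3.041 kb for Tcirg1 and 5.345 kb for Atp6v0a2. Before division by length, Atp6v0a2 averaged 5731 normalized counts and Tcirg1 4599. Per kilobase, Atp6v0a4, a form of kidney, reached at most 0.910. Of the pair for subunit d, the ubiquitous Atp6v0d1 had 520 to 695 per kilobase. Atp6v0d2, a form of osteoclasts and some macrophages, had 0 reads in 7 libraries and 7 reads in saline library 4, or 6.36 normalized counts. A count of 0 allows up to 3 reads in a library, counting error only.

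No subunit passed the test between ethanol and saline. Atp6v0d1 had 1021, 1132, 846 and 980 normalized counts in ethanol libraries 1 to 4, against 1112, 1064, 1048 and 1110 in saline libraries 1 to 4. Ethanol library 2 was the highest of all 8 and the other 3 ethanol libraries lay below every saline library, and the fold was 0.913 (0.784 to 1.06). Atp6v0a1 had a fold of 1.08 (0.965 to 1.22), Atp6v1h one of 1.04 (0.901 to 1.20) and Atp6ap1 one of 0.969 (0.886 to 1.06). Atp6v1a and Atp6v0c had folds of 0.993 (0.860 to 1.15) and 0.996 (0.825 to 1.20). Of the 6 tested subunits, Atp6v0c had the highest coefficient of variation over the 8 libraries, 17.2%, with 2852, 3319, 4455 and 3775 in ethanol libraries 1 to 4, against 3308, 3165, 4577 and 3375 in saline libraries 1 to 4. Library 3 was the highest in each group.

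The transcription factor genes were ordered Tfe3, Tfeb and Mitf. Per kilobase, Tfe3 had 912 to 1095 normalized counts over the 8 libraries, Tfeb 342 to 422 and Mitf 116 to 154, with no overlap, and the related Tfec had 0 to 20.1. Tfe3 had 3713, 3571, 3494 and 3354 in ethanol libraries 1 to 4, against 3368, 3348, 3166 and 3092 in saline libraries 1 to 4. The groups touched only where ethanol library 4 fell just below saline library 1. The fold was 1.09 (0.982 to 1.21, limma adjusted p = 0.997). Tfeb averaged 912 ± 78.2 in ethanol and 919 ± 64.6 in saline libraries (SD, n = 4 each), a fold of 0.992 (0.851 to 1.16). The fold of Mitf was 0.992 (0.834 to 1.18).

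Over the 34 tested members, 0 were called in limma at an adjusted p under 0.05, where 0% of all 14428 tested genes were called. At an unadjusted p under 0.05 there were 0 members, against 3.63% of all tested genes (1.7% higher and 1.93% lower in ethanol), and edgeR, voom and DESeq2 also gave 0 members. Over all genes, edgeR gave 495 at that level, voom 546 and DESeq2 777 (of 26782 genes), each with 0 calls after adjustment. The groups did not overlap for 0 members and for 2.32% of all tested genes. Fold changes were positive for 14 members and negative for 20, and their median log2 fold change was -0.01, as was that of all tested genes. By role, fold changes above and below 0 numbered 6 and 4 for the glycan-degrading enzymes, 1 and 3 for the proteases, 2 and 4 for the lipid group, 2 and 3 for the membrane proteins, 2 and 4 for the pump and 1 and 2 for the factors.

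For 33 of the 34 members, or 97.1%, the 95% interval excluded a change of 1.5-fold in either direction, against 56.3% of all tested genes and 99.5% of genes with a mean of at least 1000. The exception was Gla. The median SD between libraries of a group was 0.10 on the log2 scale for members, 0.13 for genes with a mean of at least 1000 and 0.25 for all tested genes.

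**Figure D3:**
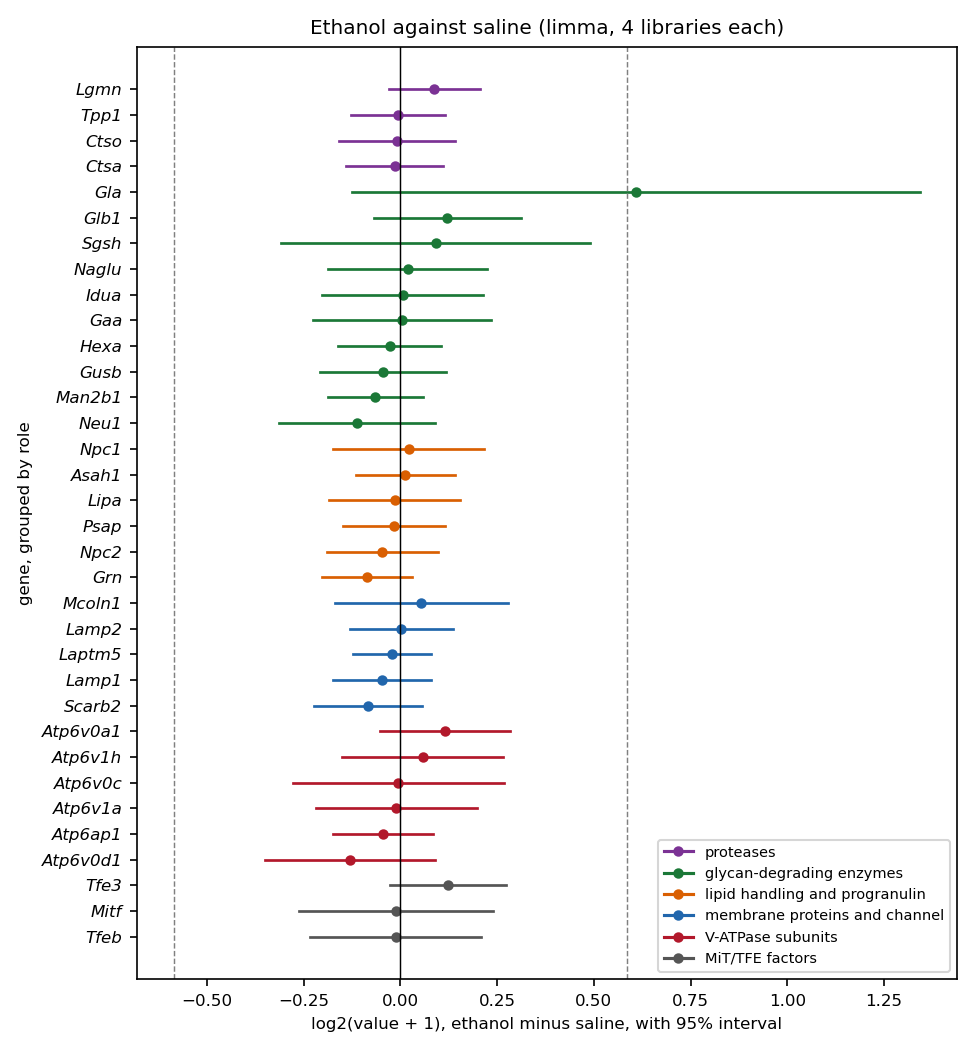
Difference between ethanol and saline in log2(value + 1) for the 34 tested lysosomal genes, grouped by role, with limma's 95% interval (4 libraries per group); dashed lines mark 1.5-fold. Every interval includes 0, and that of Gla alone reaches past a dashed line.

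Other genes of the pathway, taken from lists of lysosomal genes outside the 35, also held 0 calls. Of 41 tested other hydrolases and activators, 0 passed, with 16 positive and 25 negative fold changes and a median log2 fold change of -0.02. Of 38 tested other membrane proteins and transporters, 0 passed, with 21 positive and 17 negative and a median of 0.01. Of 22 tested other V-ATPase subunits and assembly factors, 0 passed, with 10 positive and 12 negative and a median of -0.02. Of 27 tested genes that act in mTORC1 and TFEB control at the lysosome, 0 passed, with 9 positive and 18 negative and a median of -0.07.

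Unadjusted limma p-values under 0.05 were found for 2 of the 38 other membrane proteins and transporters and 1 of the 27 control genes. The other lists had 0, and the share over all tested genes was 3.63% in both directions. All 3 were lower in ethanol (1.93% of all tested genes were), and none passed the adjustment. Slc36a1, an amino acid transporter of the lysosomal membrane, had 1350, 1274, 1221 and 1152 normalized counts in ethanol libraries, against 1656, 1468, 1365 and 1471 in saline libraries. Each ethanol library lay below each saline library, as for 1.2% of all tested genes, and the fold was 0.839 (0.732 to 0.963, limma adjusted p = 0.997). The groups did not overlap for 2 of the 41 other hydrolases, 2 of the 38 other membrane proteins and 0 in the other lists. In both directions that held for 2.32% of all tested genes. Fnip2, a partner of folliculin in mTORC1 control, averaged 776 ± 71.0 in ethanol and 986 ± 175 in saline libraries (SD, n = 4 each), a fold of 0.794 (0.659 to 0.955, limma adjusted p = 0.997). Slc15a4, a histidine and peptide transporter, had a fold of 0.814 (0.669 to 0.989, limma adjusted p = 0.997). The other genes with the smallest p in each list had folds that ran from 0.788 for Dmxl2 to 1.27 for Galns. They were Arsa, Ctbs and Arsb among the hydrolases, Tmem175 and Mfsd8 among the membrane proteins, Atp6v0a2, Atp6v1f and Dmxl1 for the pump, and Mtor, Tsc2 and Fnip1 for its control.

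The members did not vary as a single block from library to library. Over the 561 pairs of tested members, the median Pearson's r of log2 values across the 8 libraries was 0.0737, against -0.0025 over pairs of all tested genes and 0.0215 over pairs of genes with a mean of at least 1000. An r over 0.7 was found for 5.88% of the member pairs and for 4.74% of pairs of those abundant genes, and an r under -0.7 for 3.21% and 3.92%. Pairs share libraries and depth, so these shares are descriptions. Within roles, the median r was 0.20 for the glycan-degrading enzymes, 0.04 for the V-ATPase subunits, 0.09 for the membrane proteins, 0.05 for the lipid group and -0.23 for the proteases. Genes with TCACGTG in the promoter window had a median r of 0.25 with each other (55 pairs) and the members without it one of 0.05 (190 pairs). This difference was not tested and is given for the main setting only. Under quantile normalization the median over all member pairs was 0.0141. Gaa, Gla, Glb1, Naglu and Sgsh, which carry TCACGTG, also belong to the glycan-degrading enzymes.

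**Figure D4:**
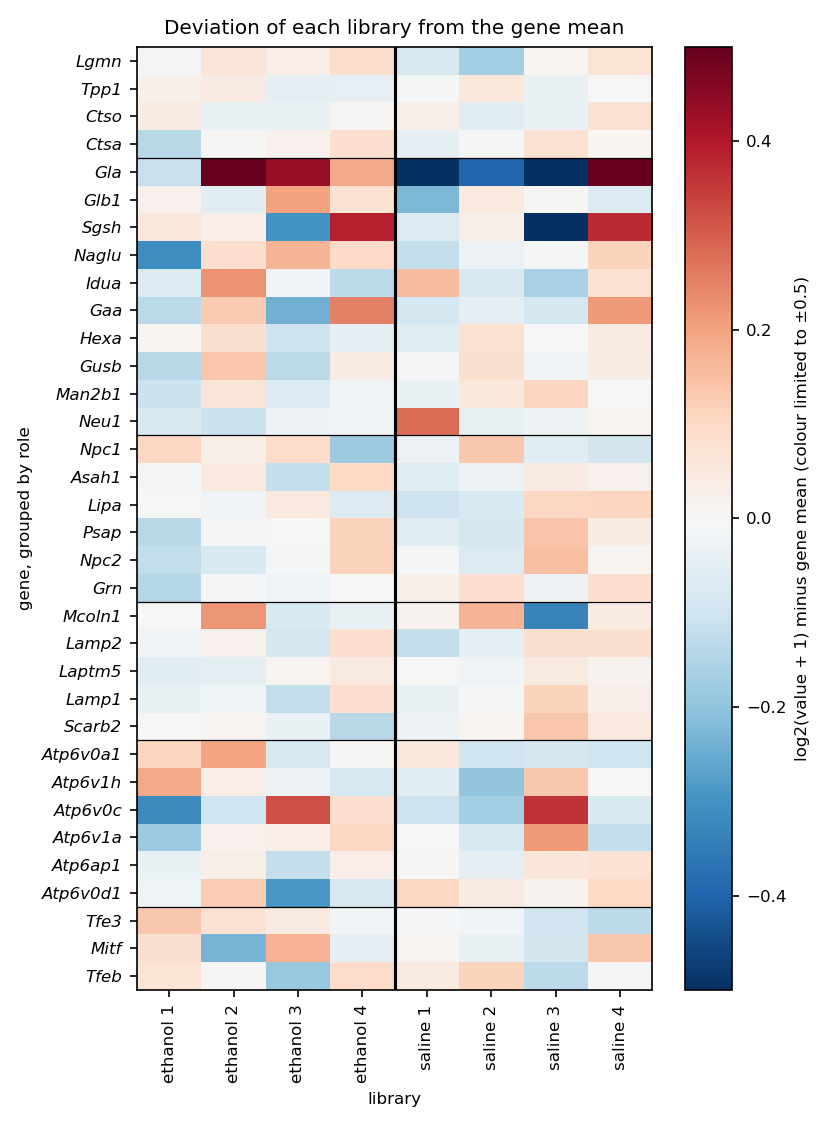
Log2(value + 1) of each library minus the gene's mean over 8 libraries, for the 34 tested lysosomal genes grouped by role, with ethanol libraries left of the line and saline libraries right of it; colour is limited to ±0.5. Gla and Sgsh carry the strongest colours, Sgsh and Atp6v0c show library 3 at opposite ends in each group, and most membrane protein and protease rows are pale.

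The strongest correlations were between abundant genes. The top pairs, chosen after their values were seen, were Npc2 with Laptm5 (r = 0.942, rho = 0.976), Npc2 with Psap (r = 0.932, rho = 0.881) and Ctsa with Psap (r = 0.916, rho = 0.929). In two-sided exact permutation tests over 8 libraries the p-values of r were 0.000818, 0.00126 and 0.00129, and the p-values of rho were 0.000397, 0.00724 and 0.00223. After adjustment over the 561 pairs the p was 0.241 for each r, and 0.223, 0.508 and 0.313 for rho, so 0 pairs passed (43 had a permutation p of r under 0.05). Without the 2 libraries farthest from the median of the first gene, r was 0.954, 0.770 and 0.898. Under quantile normalization the 3 values of r were -0.729, 0.292 and 0.515, so the first turned its sign and the others shrank. That setting gives each gene the mean value at its rank, so r then follows shifts in rank only. Laptm5 with Tpp1 went from -0.841 to 0.866 under it. Whether it suits genes as abundant as Laptm5 and Psap was not tested.

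Some partners that act together did not vary together. Npc1 and Npc2 had an r of -0.777 (exact permutation p = 0.0245, adjusted p = 0.494) and a rho of -0.810 (p = 0.0218, adjusted p = 0.606), with an r of -0.685 without the 2 farthest libraries. Ctsa and Neu1 had an r of -0.108 (exact permutation p = 0.715, adjusted p = 0.928; rho = 0.262, p = 0.536, adjusted p = 0.929). Their r was -0.605 without the 2 farthest libraries and 0.212 under quantile normalization. Lamp1 and Lamp2, in contrast, had an r of 0.811 (exact permutation p = 0.0135, adjusted p = 0.483) and a rho of 0.833 (p = 0.0154, adjusted p = 0.539). Without the 2 farthest libraries their r was 0.764, and under quantile normalization 0.658.

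**Figure D5:**
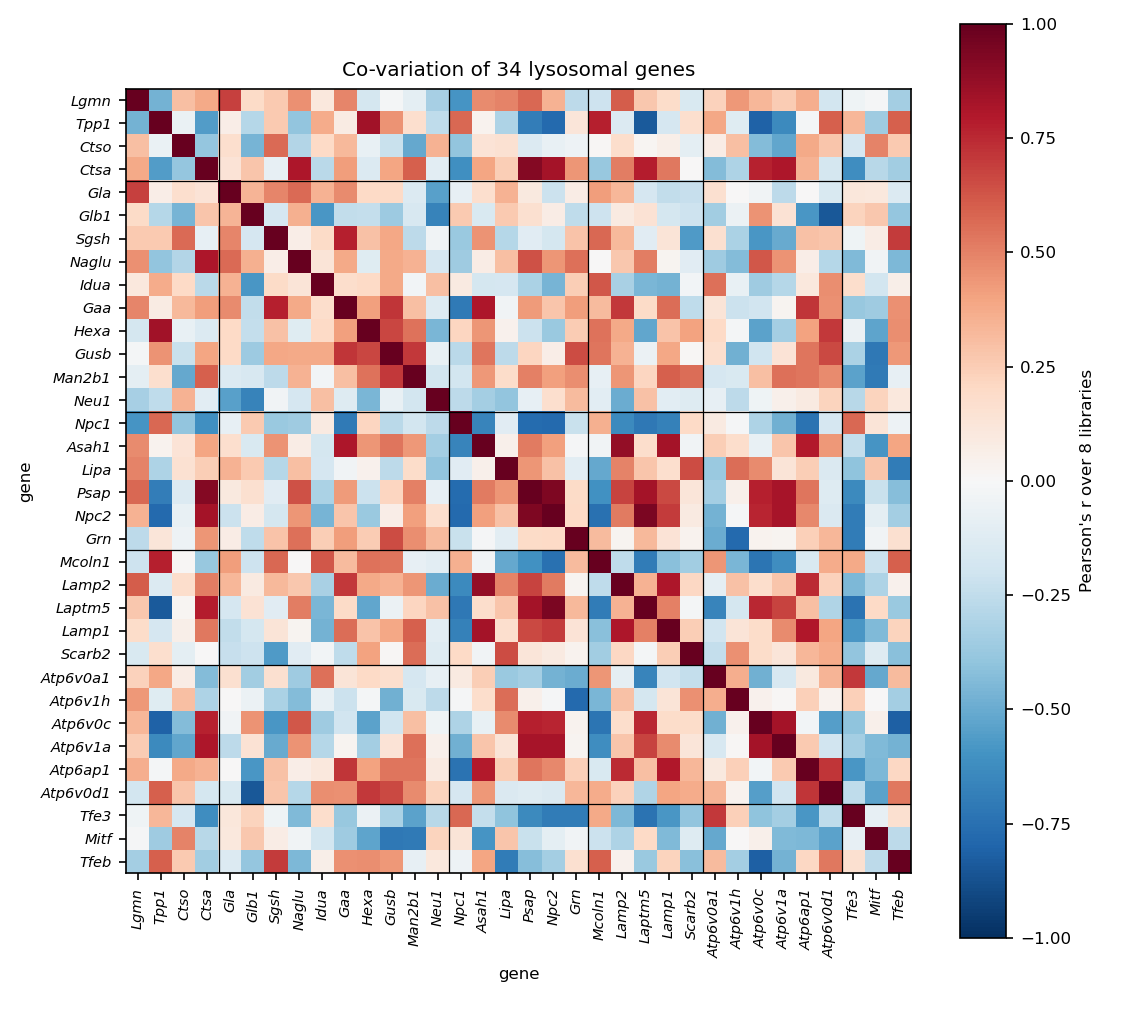
Pearson's r of log2(value + 1) over the 8 libraries for each pair of the 34 tested lysosomal genes, grouped by role (lines separate the roles). Npc2, Psap, Laptm5 and Ctsa form a red set with Atp6v0c and Atp6v1a, and Npc1, Mcoln1 and Tpp1 are blue against it. Under quantile normalization, not drawn, r of Laptm5 was negative with Ctsa (-0.708), Atp6v0c (-0.791) and Atp6v1a (-0.753). In that setting r was -0.0563 for Psap with Atp6v0c and 0.777 for Npc2 with Ctsa, so only part of the set held.

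Transcript levels of the 3 factors gave no relation to the other members that passed adjustment. Of 96 relations of Tfeb, Tfe3 or Mitf with another tested member, 0 had an adjusted p under 0.05 in exact permutation tests, and 4 had an unadjusted p under 0.05. Over the 31 members that are not factors, the median r was 0.05 for Tfeb (16 positive, 15 negative), -0.31 for Tfe3 (8 positive, 23 negative) and -0.19 for Mitf (10 positive, 21 negative). With the 11 genes that carry TCACGTG, the median r was -0.14 for Tfeb, -0.26 for Tfe3 and -0.21 for Mitf. All these values pool ethanol and saline libraries, so differences between the groups enter them. After each group's mean was removed, 11 of the 96 relations fell below 0.05 by permutation before adjustment. Again 0 passed it, and the lowest adjusted value was 0.249. For Tfe3, r went from -0.635 to -0.879 with Psap and from -0.0417 to -0.817 with Lgmn. With Grn it weakened from -0.698 to -0.423, so single Tfe3 relations depend on this choice.

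Of the 2 relations with the smallest p for each factor, some weakened when 2 libraries were left out and others changed little. Tfeb and Atp6v0c had an r of -0.814 (exact permutation p = 0.0187, adjusted p = 0.590) and a rho of -0.690 (p = 0.0694, adjusted p = 0.833). Tfeb was lowest and Atp6v0c highest in the library numbered 3 of each group, and without these 2 libraries r was -0.05. Tfeb and Sgsh had an r of 0.702 (exact permutation p = 0.0527, adjusted p = 0.590; rho = 0.524, p = 0.197, adjusted p = 0.907), which was -0.12 without the same 2 libraries. Tfe3 and Laptm5 had an r of -0.742 (exact permutation p = 0.0365, adjusted p = 0.590; rho = -0.738, p = 0.0458, adjusted p = 0.833), with -0.696 without the 2 libraries farthest in Tfe3 and 0.555 under quantile normalization. Tfe3 and Grn had an r of -0.698 (exact permutation p = 0.0509, adjusted p = 0.590; rho = -0.595, p = 0.132, adjusted p = 0.907), which was -0.04 without those 2. Mitf had an r of -0.717 with Gusb (exact permutation p = 0.0448, adjusted p = 0.590; rho = -0.595, p = 0.132, adjusted p = 0.907) and -0.709 with Man2b1 (p = 0.0477, adjusted p = 0.590; rho = -0.738, p = 0.0458, adjusted p = 0.833). Without the 2 libraries farthest in Mitf these were -0.272 and -0.635.

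The library numbered 3 of each group, whose library names both begin with 163, lay together at one end for 4 members. They were the 2 lowest of 8 for Tfeb, Mcoln1 and Sgsh and the 2 highest for Atp6v0c. That is 11.8% of the tested members, against 11.8% of all tested genes and 17.3% of genes with a mean of at least 1000. The same-numbered libraries lay together at one end for 5 members at number 2 and 5 at number 4, or 14.7% each. The background for number 2 was 6.85% of all tested genes and 7.28% of genes with a mean of at least 1000, and for number 4 it was 7.96% and 7.77%. At number 1 this held for 2 members, or 5.88%, against 7.96% of all tested genes and 8.81% of genes with a mean of at least 1000. Both backgrounds were thus higher for number 3 than for any other number. The libraries numbered 2 also share a number in their names, as do those numbered 4, and those numbered 1 do not. What the number in a library name stands for is not given in the sources used here, and its part in these shares was not tested.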

How the data were processed

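The deposited table holds 1 column per library and 56832 rows named by gene. The authors' values are a signal, gene counts divided by 1 DESeq2 size factor per library, per the file name. Divided by what 1 read is worth in its library, 100% of non-zero values were whole within 1e-06, so whole reads were recovered. The submitters' processing notes list build GRCm39, R 4.2.2, DESeq2, Salmon 1.5.2, featureCounts 2.0.1 (Subread), STAR 2.7.9a and bcl2fastq 2.19.1, without their roles. Per the labels' protocols, cDNA came from 500 pg of RNA (SMARTer) and 150 pg entered NexteraXT, sequenced as 150 nt paired ends. These kits do not mark strand. Exons of Ctsa, Lamp1, Npc1, Idua, Sgsh and Atp6v1h overlap a gene on the opposite strand in GENCODE M21, Glb1 shares 165 exonic bases with Tmppe, and Atp6v0c has 2 pseudogene rows with means of 8.47 and 0.626, so reads of these genes could be shared. Reads carry no molecular identifiers, so limits from 0 reads cover counting error only.

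For testing, limma 3.58.1 (R 4.3.3; intensity trend, group only, two-sided) was fitted to log2(value + 1) of 14428 genes whose mean reached 10, with Benjamini-Hochberg adjustment over all of them, and fold changes are on that scale, which understates changes of low genes. Alternatives were pseudocounts of 0.5 and 5, no filter, a mean of at least 50, quantile normalization, sample number as a block, library name number as a covariate, an adjusted threshold of 0.10, each library left out, and edgeR 4.0.16, DESeq2 1.42.0 and voom on whole reads. The limma and edgeR tests were also tried on simulated counts, drawn with the means and dispersions of these data. Correlations used exact permutations over the pooled groups and were repeated with group means removed. Members and lists were chosen with earlier results of these data known. All members are named. Of each other list, the 2 genes with the smallest p in each direction with a mean of at least 50 are named, and of each factor the 2 relations with the smallest p. Comparisons of paralogues and complex partners and the named pairs were chosen after values were seen.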

Additional observations from a re-analysis of the deposited data

Results flagged for a closer look

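In 69 groups of 4 libraries with any spread, 6 held a value far from the other 3, where chance gives about 1 in 20. These were Grn in ethanol library 1 (20729 normalized counts), Neu1 in saline library 1 (1593), Gaa in saline library 4 (2670), Atp6v0c in saline library 3 (4577), Atp6v0a1 in saline library 1 (3320) and Atp6v0d2 in saline library 4 (6.36, the others at 0). Of these, 5 lay in saline libraries and 4 of those were the highest of 4 among tested genes. With the other 3 libraries at 0, any count of Atp6v0d2 would have met this rule. The groups come from the same libraries, so the rate of 1 in 20 is only a guide. Causes were not tested.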

How the results depend on the processing

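The count of called genes and of called members was 0 under each alternative, including the adjusted threshold of 0.10 and each library left out, and the count of factor relations past adjustment was 0 in each setting run. Sample number as a replicate block also gave 0 called genes and members (645 genes at an unadjusted p under 0.05 in place of 524, 1.23 times), and it turned no member's sign. The sample numbers were not taken as pairs, although sample numbers 2, 3 and 4 also share a library name number across the groups: deviations of same-numbered libraries from the group means correlated at 0.0138 to 0.0796, and the own number gave the highest r for 2 of 4 numbers. With library name number as a covariate 770 genes had an unadjusted p under 0.05, and Lgmn was the 1 member there (limma adjusted p = 0.926). Without saline library 4, 552 genes had an unadjusted limma p under 0.05, among them 1 member. Leaving out any other library gave 0 members at that level. Of 340 member values under alternatives that keep all libraries, 328 kept their sign. The 12 that turned, on the log2 scale, were Idua (-0.00028), Mitf (0.0052) and Tfeb (0.0078) under quantile normalization, Ctsa (0.0015), Ctso (0.0035), Mitf (0.014), Psap (0.012), Atp6v1a (0.0091), Atp6v0c (0.039) and Npc1 (-0.028) with library name number, and Atp6v0c in edgeR (0.0028) and voom (0.0060). Leaving out 1 library turned 51 of 272 values, for 18 members. Their ranges were -0.046 to 0.029 for Ctsa, -0.028 to 0.014 for Ctso, -0.068 to 0.058 for Idua, -0.071 to 0.065 for Mitf, -0.022 to 0.0099 for Tpp1, -0.048 to 0.12 for Mcoln1, -0.019 to 0.054 for Asah1, -0.059 to 0.0023 for Hexa, -0.056 to 0.029 for Psap, -0.034 to 0.13 for Naglu, -0.080 to 0.083 for Gaa, -0.066 to 0.23 for Sgsh, -0.052 to 0.060 for Atp6v1a, -0.11 to 0.11 for Atp6v0c, -0.057 to 0.049 for Tfeb, -0.0091 to 0.086 for Npc1, -0.052 to 0.017 for Lipa and -0.036 to 0.032 for Lamp2. Gla ran from 0.43 to 0.95. The median pair r of members was 0.0141 under quantile normalization and 0.0497 to 0.0907 without single libraries. Depth limits Atp6v0d2, which had reads in 1 library.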
